A study of Homo sapiens with 6 samples.

Results

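Translation initiation and elongation factors are the proteins that load messenger RNA and the first tRNA on the ribosome and then move the ribosome along the message. The members here are the protein-coding genes whose symbols start with EIF1 to EIF6, EEF1 or EEF2, without EEF1E1, antisense names and names that end in P plus digits, each read through the brightest transcript cluster that carries its symbol alone. This gave 56 genes of 22465, and none of the 56 had more than 1 such cluster. The ending also removed EIF4EBP1 and EIF4EBP2, which are protein-coding and are given separately, and 7 pseudogenes. EIF3A, EIF3C, EIF4A1, EIF4A2, EIF4EBP3, EEF1B2 and EEF1G share a cluster with another symbol and were not members, and EIF4G3 had no cluster named for it.

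The cells were AC16, an established human cell line made by fusing adult ventricular heart muscle cells with a transformed fibroblast line, so it is 1 line and not heart tissue. RNA of cells given fine airborne particles (PM2.5) for 24 h, at a dose of 50 µg/mL, was hybridised to 3 Affymetrix arrays, and RNA of control cells of the same line to 3 more. The labels number biological replicates without naming separate cultures, and every p-value therefore reflects only how these 6 samples spread, which may be technical. Values are the authors' log2 RMA expression values, on which a step of 1 is a factor of 2. Levels of different genes are not set against each other, because probes differ in brightness.

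Initiation starts when eIF2, carrying GTP and the initiator tRNA, joins eIF1, eIF1A, eIF3 and eIF5 on the small ribosomal subunit. The eIF4 factors bind the cap of the mRNA and unwind it, the complex scans to the start codon, and eIF5B joins the large subunit. eIF2B recharges eIF2 with GTP, and stress-sensed kinases block this by phosphorylating eIF2. In elongation eEF1A brings each aminoacyl-tRNA, eEF1B recharges eEF1A, and eEF2 moves the ribosome by one codon. Growth of heart muscle cells depends on this machinery, and eEF1A2 is the form of eEF1A typical of adult muscle and neurons.

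Many mRNAs of the translation machinery start with a terminal oligopyrimidine (TOP) tract, a C followed by a run of C and T through which mTOR controls their use. The tract was sought on the sense strand as a C followed by at least 4 bases that are each C or T, starting no more than 5 bases from the annotated start. RefSeq (GRCh38.p14) start sequences of 300 bases were matched for 45 of the 56 members. The tract was found in 18 of them (40%), against 22.1% of 15842 protein-coding genes and 23.5% of the 2948 of these above background. The letters CACGTG, the E-box bound by MYC, were found on either strand in 12 members (26.7%), against 8.88% of all genes and 11.6% of those above background. The ETS motif CCGGAAGT was found on either strand in 8 members (17.8%, against 6.19% and 10.6%). These shares are descriptions of the sequences, with no test. The starts of 9 members on which the results turn are shown with 15 bases before and 20 bases from the start, and capitals mark the tract.
EEF1A1, chr6:73521013-73521047, minus strand: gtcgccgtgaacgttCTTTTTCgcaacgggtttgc
EEF2, chr19:3985444-3985478, minus strand: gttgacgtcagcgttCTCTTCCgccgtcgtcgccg
EIF2S3, chrX:24054941-24054975, plus strand: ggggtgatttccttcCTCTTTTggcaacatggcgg
EIF4B, chr12:53006441-53006475, plus strand: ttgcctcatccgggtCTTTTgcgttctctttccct
EIF3K, chr19:38619173-38619207, plus strand: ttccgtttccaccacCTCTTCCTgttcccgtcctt
EIF4G2, chr11:10807977-10808011, minus strand: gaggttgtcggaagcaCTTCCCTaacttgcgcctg
EIF3I, chr1:32222392-32222426, plus strand: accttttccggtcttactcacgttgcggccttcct
EIF5B, chr2:99337374-99337408, plus strand: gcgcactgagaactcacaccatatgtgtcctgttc
EIF6, chr20:35284698-35284732, minus strand: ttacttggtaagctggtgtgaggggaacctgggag
In EEF1A1, EEF2, EIF2S3, EIF4B and EIF3K the tract begins at the annotated start itself. EIF3I, EIF5B and EIF6 hold no such tract in the window searched.

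A gene is called above background when it exceeded the brightest background probe set of any array (5.66) on at least 3 arrays, which held for 4150 of 22465 genes and for 32 of the 56 members. Of the other 24 members, 8 exceeded it on 1 or 2 arrays and 16 on none, and they were not shown to be silent. Genes that exceeded it on no array are called within background. The threshold came from control replicate 1, and on the other arrays the brightest background probe set stood lower, at 4.68 to 5.14. A gene called within background can therefore exceed the background probe sets of such an array. EIF1AY, which lies on the Y chromosome, is one of the 24 and is counted without its level. The arrays stood apart by their spike-in controls: the mean of 8 spike-in probe sets was 10.7 to 10.9 on 1 PM2.5 array (replicate 1) and 2 control arrays (replicates 1 and 2), called the high set. It was 10.2 to 10.3 on the other 2 PM2.5 arrays and control replicate 3, called the low set. Of 13 measured markers of heart muscle cells, 2 (MYL2 and DES) were above background, and TNNI3, MYH6, MYH7, ACTN2 and RYR2 were not. Of 7 fibroblast markers 4 were above background.

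No translation factor passed the test after PM2.5. In limma 0 of 56 members had an adjusted p under 0.05, and 0 of 22465 genes did (0%). At an unadjusted p under 0.05 stood 1 member, EIF5B (1.79% of members, against 2.11% of all genes, and 0 members against 0.795% of genes above background). The 3 PM2.5 arrays lay wholly above or wholly below the 3 controls for 2 members, EIF5B and EIF4E3, both lower and both not above background, where 5.31% of all genes had groups that did not overlap and 3.37% were lower without overlap (1.49% of genes above background). For the 32 members above background it was 0, against 3.28% of all genes above background. The median PM2.5 minus control change of these 32 was 0.00 on the log2 scale (range -0.21 to 0.41), with 17 above zero, 13 below and 2 without any change, and the median of all 4150 genes above background was 0.01. For 20 of the 30 members above background whose value varied, the 95% interval of the change lay within a 2-fold rise or fall. The other intervals were wider, and they reached from -1.65 to 2.02 on the log2 scale, so a change of more than 2-fold in those members was not excluded.

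**Figure D1:**
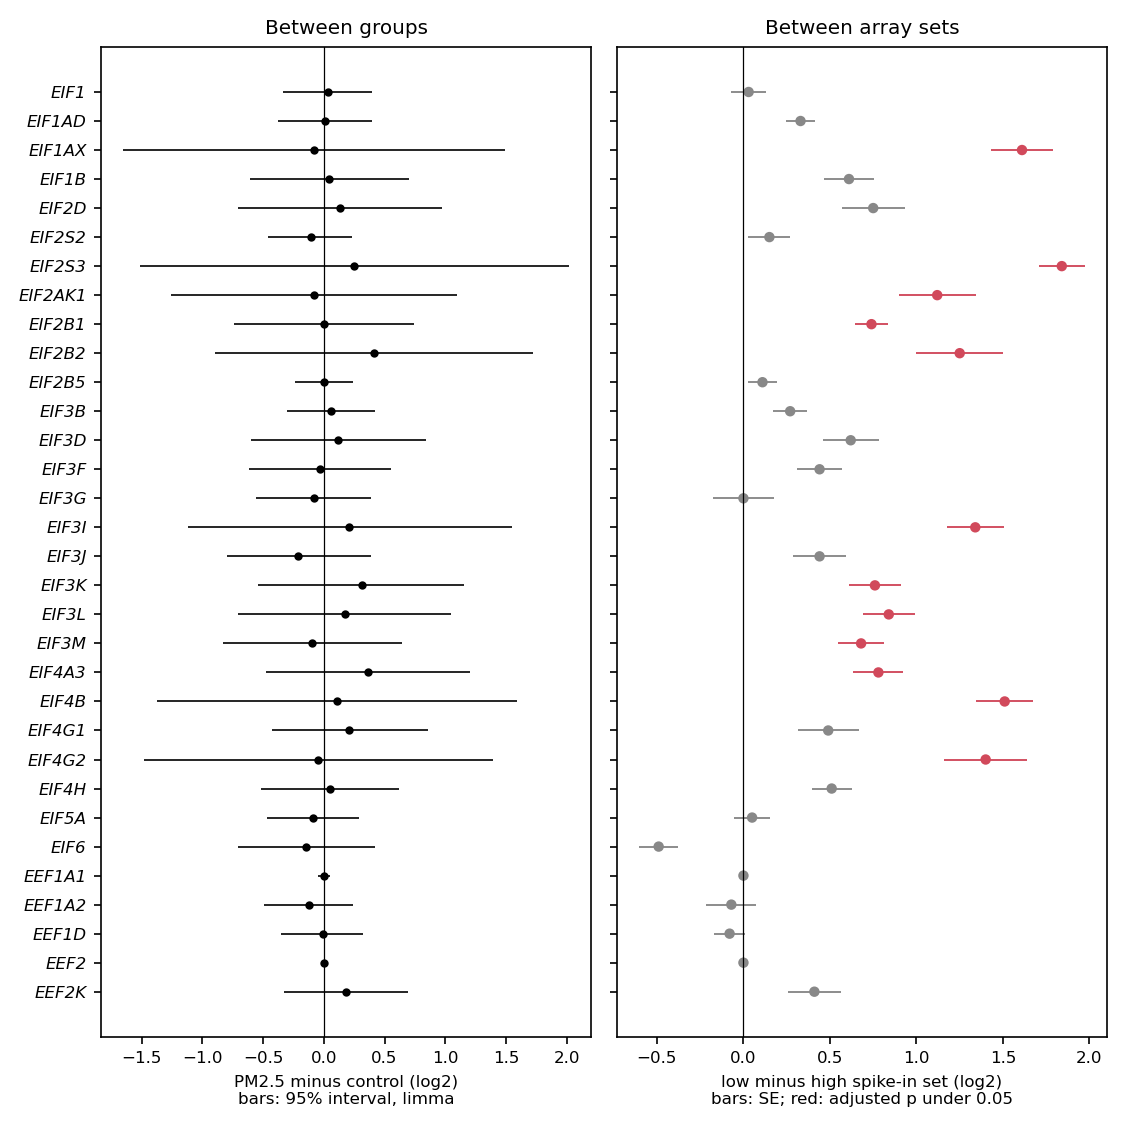
Left, PM2.5 minus control (log2, limma) of the 32 members above background with 95% intervals; right, low minus high spike-in set (log2, limma, adjusted for treatment) with SE, red where the adjusted p is under 0.05. The group changes of members run from -0.21 to 0.41 around zero, while 26 of the 32 members lie above zero on the right, up to 1.84 for EIF2S3.

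Some members were higher in the low array set, and fewer passed whichever array was left out. Between the sets, in a limma fit with treatment as a term, 14 of 56 members (25%) were higher in the low set at an adjusted p under 0.05 and 0 were lower. Over all 22465 genes 8.06% passed, 5.40% higher and 2.65% lower. Members above background passed in 12 of 32 (37.5%), all higher, where 27.1% of all genes above background passed, 20.4% higher and 6.70% lower. Low-set arrays lay wholly above high-set arrays in 29 of 56 members (51.8%, against 16.3% of all genes) and wholly below in 4 (7.14%, against 24.1%). The median low minus high difference of these 32 was 0.50 on the log2 scale, and that of all genes above background 0.17. Centring arrays on genes above background gave 0.25 and -0.07, and a further quantile normalization 0.27 and 0.00, so scaling changed the size of the shift while the gap to all genes stayed between 0.27 and 0.33 over these fits and centring on all genes. EIF1, EIF2S2, EIF2B5 and EIF5A, a little higher in the low set as deposited, were lower there under the quantile normalization and under centring on genes above background. The number of passing members fell to 0 without PM2.5 replicate 1, PM2.5 replicate 2, control replicate 1 or control replicate 3, to 7 without PM2.5 replicate 3 and to 3 without control replicate 2. The counts over all genes fell too (to 4, 26, 74, 1, 827 and 496). All 14 members stayed higher in the low set in each of these 6 fits. This had to be so, because in all 14 every low-set array lay above every high-set array. At an unadjusted p under 0.05 in limma stood 31 members with all arrays and 14 to 33 with 1 left out. Of all genes it was 6746 and 3182 to 6060. Marker lists were compared by their mean level alone, so single markers may not have moved alike. The mean of 7 fibroblast markers, of which 4 were above background, was 6.02 to 6.30 on high-set and 6.51 to 6.69 on low-set arrays. The mean of 3 leukocyte markers, of which CD68 alone was above background, was 5.45 to 5.72 and 5.78 to 6.00 (log2). The mean of 4 epithelial markers was 9.49 to 9.55 on high-set and 9.18 to 9.32 on low-set arrays. The other marker lists overlapped between the sets. Heart muscle markers averaged 4.49 to 4.55 on high-set and 4.45 to 4.56 on low-set arrays. Smooth muscle markers averaged 5.17 to 5.32 and 5.17 to 5.21, and endothelial markers 3.98 to 4.04 and 3.92 to 4.02. The part of any marker list in the shift was not tested. All samples were 1 cell line, and in bulk RNA fewer cells of a type cannot be told apart from less RNA per cell.

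**Figure D2:**
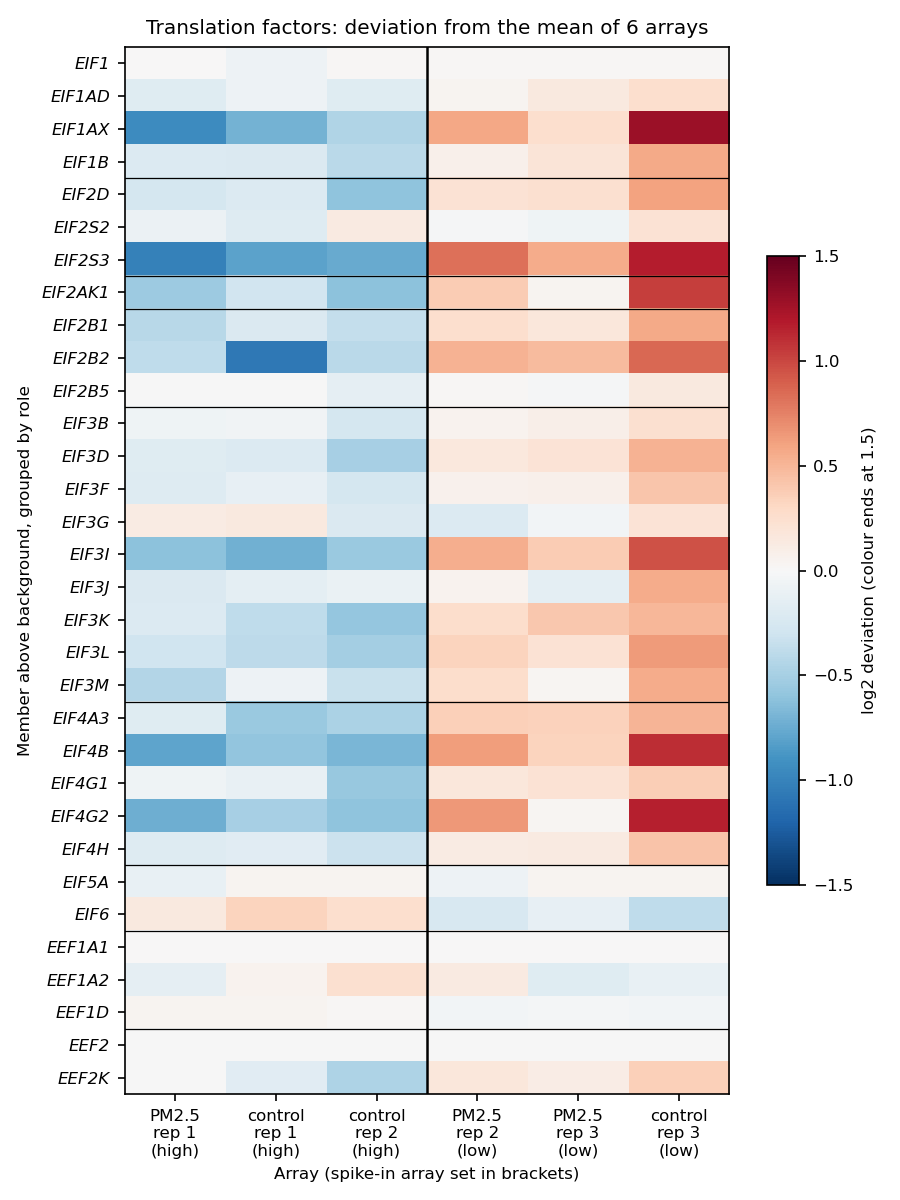
Deviation of each of the 32 members above background from its own mean over 6 arrays (log2, colour from -1.5 to 1.5), with the high set left and the low set right of the vertical line and roles split by horizontal lines. In 21 members every low-set array is above every high-set array, and control replicate 3 is the highest array for most of them. EIF6 runs the other way, and EEF1A1 and EEF2 show no difference.

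Among eIF1, eIF1A and their relatives, 4 of 5 were above background, and their PM2.5 changes ran from -0.08 to 0.04. EIF1, which keeps the scanning complex open until the start codon is met, read 8.65, 8.66 and 8.66 on PM2.5 replicates 1 to 3 and 8.57, 8.66 and 8.66 on control replicates 1 to 3. The same value stood on 4 of the 6 arrays, so differences in EIF1 may be understated. EIF1AX, the X-linked eIF1A, read 6.53, 8.05 and 7.72 after PM2.5 and 6.76, 7.02 and 8.76 in controls. Its groups overlapped fully, and the 3 low-set arrays were the 3 highest. The group change was -0.08 (SE 0.645, limma adjusted p = 1.00), and the low set was higher by 1.61 (SE 0.182, limma adjusted p = 0.0226). EIF1B, a close relative of EIF1, read 5.82, 6.10 and 6.22 against 5.81, 5.62 and 6.59. EIF1AD, an eIF1A-like protein, read 6.35, 6.58 and 6.68 against 6.46, 6.35 and 6.78.

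The eIF2 complex binds GTP and the initiator tRNA through its gamma subunit. EIF2S3, the gamma subunit, read 7.83, 9.68 and 9.41 after PM2.5 and 8.05, 8.09 and 10.03 in controls. Its array-set difference was the largest given for any member, 1.84 (SE 0.133, limma adjusted p = 0.0152), and a group change of 0.25 (SE 0.724, limma adjusted p = 1.00). The change was -0.24 within the high and -0.48 within the low set. EIF2S2, the beta subunit, read 6.65, 6.72 and 6.68 against 6.55, 6.88 and 6.96. EIF2S1, the alpha subunit on which the stress kinases act, read 4.87, 5.25 and 4.92 against 4.96, 4.88 and 5.52, over the background threshold on no array. EIF2D, which can deliver tRNA without GTP, read 7.60, 8.08 and 8.10 against 7.66, 7.26 and 8.47. EIF2A, another protein that can bind initiator tRNA, and EIF2S3L, a relative of EIF2S3 (EIF2S3B in RefSeq), lay within background. EIF2A read 4.98, 5.01 and 4.98 against 4.89, 5.02 and 4.97, and EIF2S3L 4.41, 4.23 and 4.27 against 4.31, 4.15 and 4.29. EIF2S2 did not pass between the sets (0.15, limma adjusted p = 0.426), and the difference between the subunits was not tested.

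**Figure D3:**
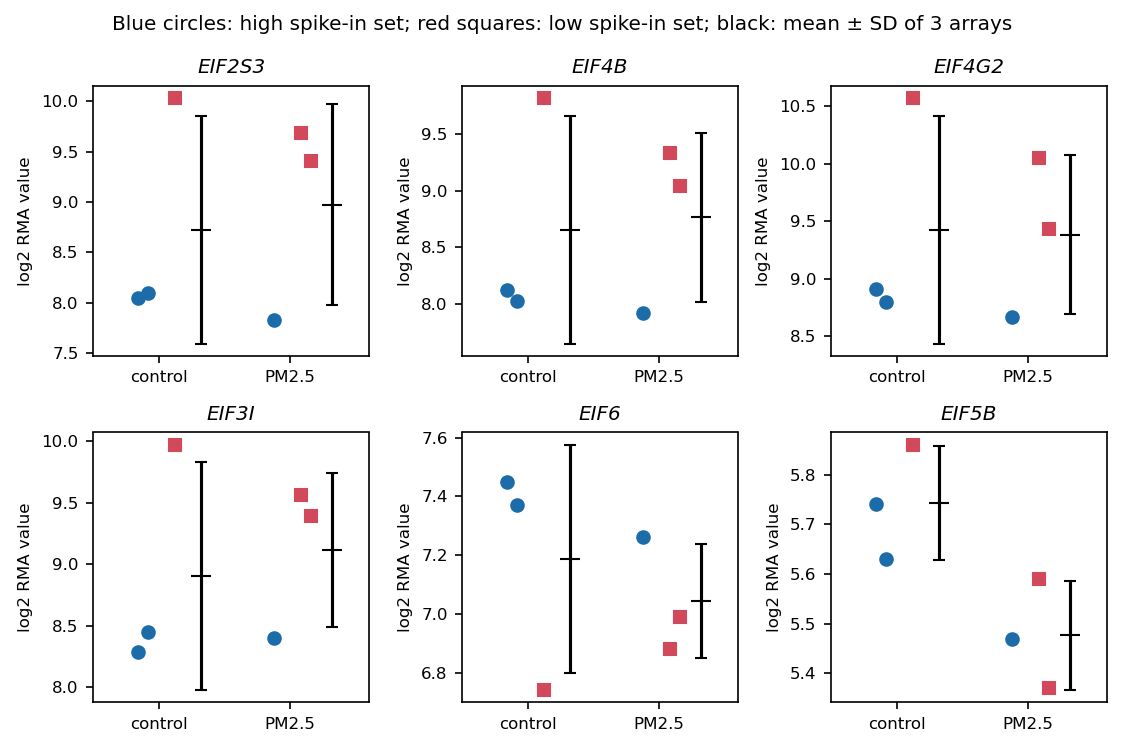
Log2 RMA values of 6 members on each array, control left and PM2.5 right, circles for the high and squares for the low set, black marks for the mean ± SD of 3 arrays. EIF2S3, EIF4B, EIF4G2 and EIF3I split by array set and not by group, EIF6 splits by set the other way, and in EIF5B the 3 PM2.5 arrays (5.37 to 5.59) lie below the 3 controls (5.63 to 5.86).

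Of the 4 eIF2 kinases only EIF2AK1 was above background. EIF2AK1, the kinase (HRI) that responds to haem shortage and oxidative stress, read 7.39, 8.32 and 7.98 after PM2.5 and 7.65, 7.32 and 8.97 in controls. The control group held both its highest and its lowest array, and the group change was -0.08 (SE 0.484, limma adjusted p = 1.00). The low set was higher by 1.12 (SE 0.222, limma adjusted p = 0.0464). EIF2AK4 (GCN2), the sensor of amino acid shortage, read 4.75, 5.39 and 5.13 against 4.80, 4.82 and 5.89, over the background threshold on 1 array, and passed between the sets (0.79, limma adjusted p = 0.0437). EIF2AK3 (PERK), the kinase of the endoplasmic reticulum, read 4.32, 4.44 and 4.40 against 4.40, 4.42 and 4.43, within background. EIF2AK2 (PKR), the sensor of double-stranded RNA, read 5.41, 5.66 and 5.50 against 5.26, 5.34 and 5.88.

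Of the 5 subunits of eIF2B, the exchange factor of eIF2, 3 were above background. EIF2B2, the beta subunit, read 7.18, 8.09 and 8.04 after PM2.5 and 6.49, 7.16 and 8.43 in controls. Its group change of 0.41 (SE 0.536, limma adjusted p = 1.00) was the largest rise fitted among the 32 members above background, and its groups overlapped. With array set as a blocking term the change was 0.00 (limma adjusted p = 1.00), at 0.35 in the high and -0.36 in the low set. EIF2B1, the alpha subunit, read 6.14, 6.80 and 6.72 against 6.33, 6.20 and 7.12, and EIF2B5, the catalytic epsilon subunit, 5.97, 6.00 and 5.96 against 5.97, 5.84 and 6.12. EIF2B1 and EIF2B2 passed between the sets (0.74 and 1.25, limma adjusted p = 0.0272 and 0.0486) and EIF2B5 did not (0.11, limma adjusted p = 0.397). EIF2B3 and EIF2B4 exceeded the background threshold on no array.

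The scaffold eIF3 holds the initiation complex together, and 9 of its 11 member subunits were above background. Their PM2.5 changes ran from -0.21 (EIF3J) to 0.31 (EIF3K), 5 above and 4 below zero, and the groups overlapped for all 11. EIF3K read 10.50, 10.97 and 11.11 after PM2.5 and 10.32, 10.13 and 11.21 in controls (change 0.31, SE 0.345, limma adjusted p = 1.00). EIF3J, a loosely bound subunit, read 8.05, 8.32 and 8.13 against 8.13, 8.17 and 8.83. Control replicate 3 stood highest for both. EIF3I, a WD-repeat subunit, read 8.40, 9.56 and 9.39 against 8.29, 8.45 and 9.97, and differed between the sets by 1.34 (SE 0.164, limma adjusted p = 0.0263). EIF3K, EIF3L and EIF3M passed between the sets too (0.76, 0.84 and 0.68), as did EIF3H, not above background (0.35). EIF3G, the RNA-binding subunit, read 8.56, 8.23 and 8.40 against 8.58, 8.22 and 8.64 and did not separate the sets (difference 0.00). EIF3D, which can itself bind the cap, read 7.83, 8.17 and 8.22 against 7.81, 7.52 and 8.53. EIF3B read between 5.83 and 6.34, and EIF3F between 8.66 and 9.34. EIF3E, not above background, read 5.26, 5.48 and 5.42 against 5.39, 5.79 and 5.48. Of the subunits on shared clusters, EIF3A (with SNORA19) read 6.80, 7.11 and 6.97 against 6.97, 6.80 and 7.58 and was not tested.

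Of the 10 eIF4 members 5 were above background: EIF4A3, EIF4B, EIF4G1, EIF4G2 and EIF4H. EIF4A3, the helicase of the exon junction complex, read 8.21, 8.75 and 8.74 after PM2.5 and 7.83, 7.91 and 8.90 in controls. Its change was 0.36 (SE 0.345, limma adjusted p = 1.00), and its groups overlapped through control replicate 3. EIF4G1, the scaffold of the cap complex, read 7.68, 7.92 and 7.96 against 7.63, 7.18 and 8.11, also with control replicate 3 highest. EIF4B, which stimulates the helicase eIF4A, read 7.92, 9.34 and 9.04 against 8.12, 8.03 and 9.82. Its group change was 0.11 (SE 0.608, limma adjusted p = 1.00) and its array-set difference 1.51 (SE 0.166, limma adjusted p = 0.0226). EIF4G2 (DAP5), which initiates without binding eIF4E, read 8.67, 10.05 and 9.43 against 8.91, 8.80 and 10.57, and differed between the sets by 1.40 (SE 0.241, limma adjusted p = 0.0376). EIF4H, a partner of eIF4A related to eIF4B, read 6.84, 7.16 and 7.17 against 6.86, 6.71 and 7.46. EIF4E, the cap-binding protein, lay within background, at 4.37, 4.54 and 4.48 against 4.49, 4.56 and 4.64. EIF4E2 and EIF4E1B, relatives of EIF4E, and EIF4ENIF1, which binds eIF4E, were not above background. EIF4ENIF1 read 5.11, 5.19 and 5.17 against 5.06, 4.93 and 5.2. EIF4A1 and EIF4A2, the helicases proper, lie on clusters shared with small RNAs and were not tested. Their clusters read 9.60, 9.86 and 9.86 against 9.66, 9.58 and 9.89, and 5.93, 5.92 and 5.95 against 5.86, 6.04 and 6.12. EIF4E3, a relative of EIF4E, read 4.35, 4.36 and 4.35 against 4.38, 4.40 and 4.37, so that the groups did not overlap although the means lay 0.03 apart (log2 change -0.03, limma adjusted p = 1.00).

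The inhibitors of EIF4E that the name ending removed are EIF4EBP1 and EIF4EBP2, which bind eIF4E until mTOR phosphorylates them. EIF4EBP1 read 7.90, 7.61 and 7.51 after PM2.5 and 7.60, 7.55 and 7.58 in controls, with PM2.5 replicate 1 alone standing higher (change 0.10, SE 0.157, limma adjusted p = 1.00). EIF4EBP2 read 6.43, 7.31 and 7.26 against 6.41, 6.39 and 7.67 and passed between the sets (1.06, limma adjusted p = 0.0226), whereas EIF4EBP1 did not (-0.17, limma adjusted p = 0.372). The test of the difference between these 2 genes was not run.

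EIF5B, the GTPase that joins the ribosomal subunits, was lower after PM2.5 on every array and did not pass the test. It read 5.47, 5.59 and 5.37 after PM2.5 and 5.74, 5.63 and 5.86 in controls, with 2 arrays over the background threshold. The change was -0.27 (SE 0.0980, limma unadjusted p = 0.0342, adjusted p = 1.00), at -0.21 within the high and -0.38 within the low set, and its array-set difference was 0.09. Both changes within a set had to be negative, because the groups did not overlap. With array set as a blocking term the change was -0.30 (limma unadjusted p = 0.0206, adjusted p = 0.862). EIF5, which triggers GTP hydrolysis by eIF2, read 5.36, 5.57 and 5.52 against 5.43, 5.38 and 5.73. EIF5A, the hypusine-bearing factor that relieves stalled ribosomes, read 8.59, 8.63 and 8.75 against 8.75 on all 3 controls. The value 8.75 stood on 4 arrays, PM2.5 replicate 3 among them, so its group change of -0.09 may be understated. EIF6, which keeps the large subunit from joining too early, read 7.26, 6.88 and 6.99 against 7.45, 7.37 and 6.74. It was lower on all 3 low-set arrays than on all 3 high-set arrays and did not pass between the sets (-0.49, SE 0.113, limma adjusted p = 0.0613). Low-set arrays lay wholly below high-set arrays in 2 of the 32 members above background (6.25%, against 18.7% of genes above background), EIF6 and EEF1D, and wholly above in 21 (65.6%, against 45.3%). EIF5A2 and EIF5AL1, close relatives of EIF5A, lay within background. EIF5A2 read 4.38, 4.54 and 4.34 against 4.39, 4.37 and 4.37.

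No elongation factor passed after PM2.5, and EEF1A1 and EEF2 could not be tested, since their values were the same on every array. EEF2, which moves the ribosome along the mRNA, read 19.9 on all 6 arrays, the highest value in the table. That highest value stood on all 6 arrays in 264 of the 70523 rows, so EEF2 lay at a ceiling that many rows share. EEF1A1, which delivers aminoacyl-tRNA and has many near-identical pseudogenes, read 18.01 on all 6 arrays. Identical values on every array occurred in 2 of the 32 members and in 1.28% of genes above background (3.57% of all members and 0.245% of all genes). The cluster of EEF1G, shared with MIR3654, read 17.64, 17.78 and 17.80 against 17.74, 17.78 and 17.80. EEF1A2 read 6.57, 6.84 and 6.53 after PM2.5 and 6.76, 6.95 and 6.60 in controls, with overlapping groups (change -0.12, SE 0.149, limma adjusted p = 1.00). EEF1D, a subunit of the exchange factor eEF1B, read 7.97, 7.89 and 7.90 against 7.97, 7.95 and 7.88. EEF2K, the kinase that inactivates eEF2, read 5.63, 5.81 and 5.75 against 5.47, 5.17 and 6.00, and exceeded the background threshold on 3 arrays (change 0.18, SE 0.211, limma adjusted p = 1.00). EEF2KMT and EEF1AKMT1 to EEF1AKMT3, the methyltransferases of eEF2 and eEF1A, were not above background and had changes between -0.07 and 0.07. EEF1AKMT2 read 5.16, 5.13 and 5.22 against 5.22, 5.13 and 5.38, and EEF1AKMT1 4.19, 4.14 and 4.21 against 4.08, 4.29 and 4.11.

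The PM2.5 change was also taken within each array set and set beside all genes above background. Within the low set PM2.5 replicates 2 and 3 averaged below control replicate 3 for 26 of the 32 members above background (81.2%, against 72.6% of all genes above background), with a median change of -0.31 against -0.12. Within the high set PM2.5 replicate 1 lay below the mean of control replicates 1 and 2 for 14 of 32 (43.8%, against 42.8%), with a median of 0.01 against 0.02. PM2.5 was higher in the high and lower in the low set for 14 members (43.8%, against 39.5% of genes above background), and lower in both for 12 (37.5%, against 32.7%). It was higher in both for 1 (3.12%, against 15.3%) and moved the opposite way, lower in the high and higher in the low set, for EIF6 and EEF1A2 (6.25%, against 10%). Each set has 1 array on one side, so these changes carry no error and no test. Fitting the array set as a block gave a median over the 32 members of -0.10 against -0.05 for all genes above background. In that fit 0 members passed (lowest adjusted p = 0.862 in limma, and 0% of all genes passed). At an unadjusted p under 0.05 stood 5 members, all lower (EIF1AX, EIF2B1, EIF2S3, EIF4E and EIF5B, 8.93% of members, against 5.76% of all genes in either direction and 3.51% lower). Of members above background it was 3 (9.38%), where 6.70% of all genes above background stood and 5.83% were lower. EIF1AX had the largest of these changes (-0.62, limma adjusted p = 0.862). Without control replicate 3 the median became 0.28 against 0.11, and 9 of 32 members had groups that did not overlap, against 33.9% of genes above background.

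**Figure D4:**
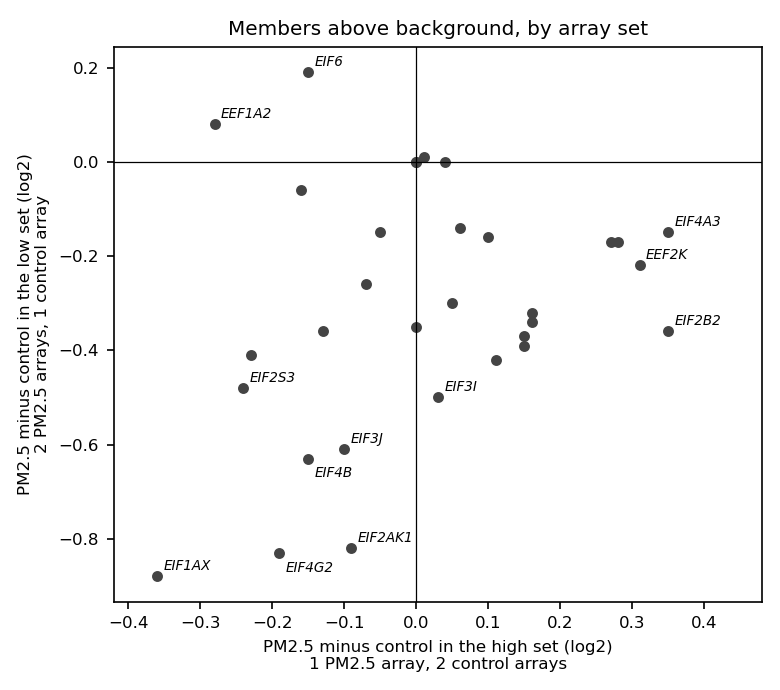
PM2.5 minus control (log2) of each member above background within the high set (x) and within the low set (y). Of the 32 points 26 lie below zero on the y axis, down to -0.88 for EIF1AX, while on the x axis 16 lie above and 14 below zero.

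No other gene of the pathway passed after PM2.5. Of 50 listed genes for termination, poly(A) binding, mTOR signalling, the eIF2 phosphatase, re-initiation, factor modification and selenocysteine or mitochondrial factors, 44 were measured and 21 were above background. None passed between PM2.5 and control in limma, where 0% of all genes did. The groups did not overlap for 3 of the 44 (DHPS, MTIF2 and RPS6KB1), all lower after PM2.5, where 3.37% of all genes were lower without overlap. DHPS, which carries out the first step in making the hypusine of eIF5A, read 7.27, 7.21 and 7.26 after PM2.5 and 7.47, 7.36 and 7.56 in controls (change -0.22, SE 0.127, limma adjusted p = 1.00). DHPS was the 1 such gene of the 21 above background, where 1.49% of all genes above background were lower without overlap. Its changes within the high (-0.15) and the low set (-0.32) had to be negative, because its groups did not overlap. Between the sets 7 of the 44 passed, all higher in the low set, against 5.40% of all genes. Of the 21 above background it was 5 (23.8%), close to the 20.4% of all genes above background. These were GSPT1, a release factor (0.85), the poly(A)-binding proteins PABPC1 (0.65), PABPC4 (0.63) and PABPC3 (0.41, within background), the kinase MTOR (0.59), PPP1R15B, which directs the eIF2 phosphatase (0.51, within background), and ABCF1, an eIF2 partner (0.80). The array-set difference was also set beside the TOP tract, as a description with no test. The 13 members above background with the tract had a median of 0.62 and the 13 without it 0.51. Repeated values may hide differences in EEF1A1, EEF2 and EIF1, which have the tract, and in EIF5A, which does not.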

How the data were processed

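Total RNA of 6 AC16 samples was hybridised to Affymetrix arrays. The authors deposited log2 expression values, and the submitters' processing notes name RMA as the method. RMA as usually run subtracts background, normalizes between arrays and summarises probes. The deposited arrays did not share 1 distribution, since their medians ran from 4.03 to 4.18. For the RMA version and genome build, the entry is: not given in the sources used here.

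Of 67528 transcript clusters, 23781 had 1 symbol and gave 22465 genes. All genes were fitted in limma 3.58.1 (lmFit, then eBayes with trend, in R 4.3.3; two-sided p, adjusted by Benjamini-Hochberg and called under 0.05), on treatment alone and, for array sets, on treatment plus set. Array sets were split at the widest gap of the spike-in mean. Of the members, 54 were matched to RefSeq by gene identifier and 2 by symbol or synonym. On simulated data with 200 of 22465 genes changed, the fit of PM2.5 against control recovered 53% of changes of 1 and 99% of changes of 2 (log2), with 10 false calls. The simulated spread of each gene was capped at the median SD of genes above background, and no array-set shift was simulated. These shares therefore do not hold for members with a wider spread, such as EIF2S3 (SD 1.00 after PM2.5 and 1.13 in controls). The number of arrays limits the precision.

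The members, lists, array sets and tests were chosen with earlier results of these data known. Values are given for members past the test or without overlap, for those with the lowest p in each direction of each role, for a core list, and for further members of each role. Alternatives were the replicate number or array set as a block, centring, quantile normalization, other variance settings, array weights, filters on dim genes, averaging of a gene's clusters, and each array left out in turn. Counting EIF4EBP1 and EIF4EBP2 as members was added after seeing the data.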

Additional observations from a re-analysis of the deposited data

How the results depend on the processing

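In limma 0 members and 0 genes passed between PM2.5 and control under every alternative run, with 35 to 6517 genes at an unadjusted p under 0.05. The lowest adjusted p of a member in limma was 0.102, with array weights. In that fit 14 of 56 members stood at an unadjusted p under 0.05, and so did 6517 of all 22465 genes. The count of members without overlap, 2, became 0 with arrays centred on their median and 0 over genes above background alone. It was 2 to 17 with 1 array left out, highest without control replicate 3. Of the 32 members above background it was then 0 to 9, against 4.39% to 33.9% of all genes above background. Within the high set it was 35 and within the low set 46. There 1 array stands against 2, so a lack of overlap comes easily. The share over all genes was not counted within a set, so these 2 counts are not read as a result about the members. The median change of members above background ran from -0.07 to 0.28 with 1 array left out and was 0.27 with array weights. Between the array sets, 14 members became 9 after quantile normalization, 26 when arrays were centred on genes above background (15425 of all genes), and 0 to 7 with 1 array left out. Counting EIF4EBP1 and EIF4EBP2, an alternative chosen after seeing the data, gave 15. With the replicate number as a block, 0 passed between treatments and 0 between sets (13 members and 3367 genes at an unadjusted p under 0.05). Deviations of same-numbered arrays correlated at 0.779, -0.654 and 0.773. The sign followed the array sets, whatever the number. A PM2.5 and a control array of the same set correlated at 0.773 to 0.834, and of different sets at -0.918 to -0.546. This check therefore cannot decide whether the numbers pair samples, and the main fit did not pair them. EEF1A1, constant as deposited, differed between sets by 0.94 after quantile normalization (limma adjusted p = 0.0274). The cause of these changes was not tested. Dim signal limits 24 members, and repeated values limit EIF1, EIF5A, EEF1A1 and EEF2.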
